A study of Mus musculus with 20 samples.

Results

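The comparison described here is the interaction between 2 handling steps of embryo biopsy, calcium- and magnesium-free medium and acid Tyrode's solution, in mouse blastocysts. It uses 16 of the 20 arrays of the series, chosen by their titles, and leaves out the 4 arrays of biopsied embryos. Each array holds the RNA of a pool of 20 embryos, so 320 embryos stand behind the comparison. The 4 groups, with replicates numbered 2 to 5 in each, were embryos given the divalent-free medium and then a stream of acid on the zona pellucida (medium + acid), embryos given the medium alone (medium), embryos given the acid alone (acid), and untreated embryos. All were of the outbred CF1 strain, were handled at the 8-cell stage, kept all their blastomeres, grew on in individual drops of culture medium, and were lysed 96 h after hCG as blastocysts. The labels give female as the sex on 15 of the 16 arrays without saying whether it is that of the embryos or of the donors. The pools mix the lineages of the blastocyst, and in such bulk samples fewer cells of a type and less RNA per cell cannot be told apart.

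Divalent-free medium is used because cadherins, the proteins that join neighbouring blastomeres, need extracellular calcium to bind each other, so compacted embryos loosen without it. Acid Tyrode's solution dissolves the zona pellucida, the glycoprotein shell of the embryo, and exposes the blastomere beneath the opening to a low pH. E-cadherin contacts and apicobasal polarity also feed the Hippo pathway, which directs outer cells to trophectoderm and inner cells to the inner cell mass. The interaction asks whether both exposures together gave more or less of a transcript than the sum of the exposures taken alone: medium + acid minus medium, minus the difference of acid and untreated, on the log2 scale. A positive value means that the medium + acid pools lay above that sum, a negative value that they lay below it, and 1 log2 unit is a doubling.

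The pools carried the transcripts of a blastocyst. Of the tested inner cell mass and epiblast genes, 19 of 22 were called Present by the Affymetrix detection test on all 16 arrays, as were 24 of 26 trophectoderm genes and 14 of 23 primitive endoderm genes. Pou5f1 and Nanog of the inner cell mass, Cdx2 and Krt18 of the trophectoderm, and Gata6 and Gata4 of the primitive endoderm were among them. The array held 25, 28 and 24 genes of these lists in that order, of which 22, 26 and 23 passed the filter for testing. Of the cumulus and granulosa cell markers, 6 of the 16 on the array passed the filter for testing, and 4 of those 6 were Present on all 16 arrays.

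A single array stood apart, replicate 5 of medium + acid. It had 44.3% of its probe sets called Present, where the other 15 arrays had 47.9% to 50.9%, and an actin 3'/5' signal ratio of 4.22, where the others had 1.51 to 3.06. Its median log2 intensity over the tested probe sets was 7.55, against 7.76 to 7.88 elsewhere, and its mean correlation with the other arrays was 0.985, while each of the others reached at least 0.994. It was the lowest or the highest of the 16 arrays at 54.9% of the tested probe sets, and each other array at 5.0% to 17.1%. The Gapdh 3'/5' ratio of the array, 3.99, lay within the 3.08 to 4.30 of the other 15. The interaction rests on 4 combined pools, so the count over all probe sets, the list medians and the leading genes described pool by pool are given also without this array.

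**Figure D1:**
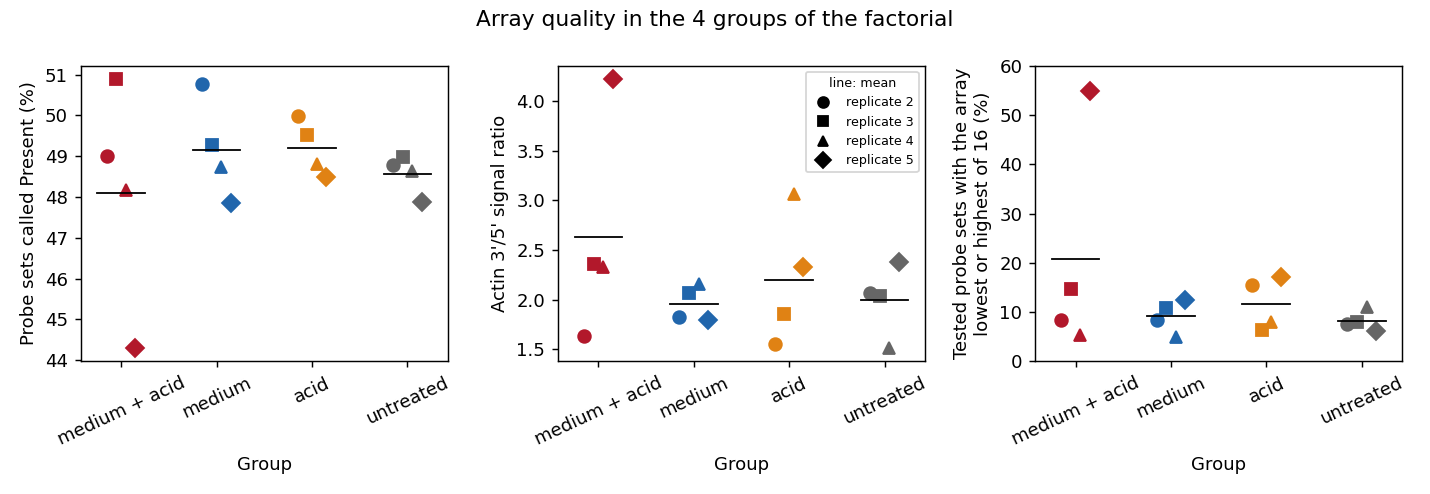
Array quality by group, medium + acid on the left and untreated on the right: percent of probe sets called Present, the actin 3'/5' signal ratio, and the percent of tested probe sets at which an array was the lowest or highest of 16. Symbols are the replicate numbers and lines the group means; replicate 5 of medium + acid, at 44.3%, 4.22 and 54.9%, lies outside the range of the other 15 arrays in every panel.

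The same difference of differences was taken on the array measures themselves. The share of Present probe sets averaged 48.1% ± 2.77 with medium + acid, 49.2% ± 1.22 with medium, 49.2% ± 0.675 with acid and 48.6% ± 0.481 in untreated pools (SD, n = 4 each). Its interaction averaged -1.71 ± 2.33 percentage points (SD, n = 4 replicate numbers), and -0.885 without number 5, with an exact two-sided sign permutation p of 0.375, where 4 numbers cannot go below 0.125. For the actin 3'/5' ratio the interaction was 0.471 ± 1.58 (exact p = 0.625) and -0.198 without replicate number 5, and for the Gapdh 3'/5' ratio -0.229 ± 0.984 (exact p = 0.75) and -0.375 without number 5. The median log2 intensity of the tested probe sets averaged 7.76 ± 0.147 with medium + acid, 7.84 ± 0.0426 with medium, 7.83 ± 0.0321 with acid and 7.81 ± 0.0313 in untreated pools (SD, n = 4 each). Its interaction was negative in all 4 numbers, at -0.09, -0.01, -0.03 and -0.28, and averaged -0.11 ± 0.12, with the exact p at 0.125, the smallest that the design allows. With that floor no measure could pass a threshold of 0.05, so these p-values do not show whether array quality had an interaction.

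No gene passed the test for an interaction. Of 25553 probe sets, 0 were called at an adjusted p under 0.05 by limma with Benjamini-Hochberg adjustment (0% called), and the lowest adjusted p was 0.751. Before adjustment, 927 probe sets (3.63%) had a p under 0.05, 445 of them positive (1.74%) and 482 negative (1.89%). Without replicate 5 of medium + acid 0 were again called (0%), the lowest adjusted p was 0.906, and 845 probe sets lay under the unadjusted threshold (3.31%). The estimates were mostly small: the median was -0.007, and 91 probe sets (0.356%) had an interaction beyond 1 log2 unit in either direction, 65 (0.254%) without that array. The median 95% interval reached 0.386 to either side, 0.318 without that array, and for 84.5% of the probe sets the whole interval lay within 1 log2 unit of 0 (90.9% without it). Among the 17116 probe sets Present on all 16 arrays the median interval was wider, at 0.434 to either side. There 82.5% had the whole interval within 1 log2 unit of 0. Probe sets with fewer Present calls gave 0.238 and 88.5%. Smaller departures from the sum of the exposures are not excluded by these intervals.

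**Figure D2:**
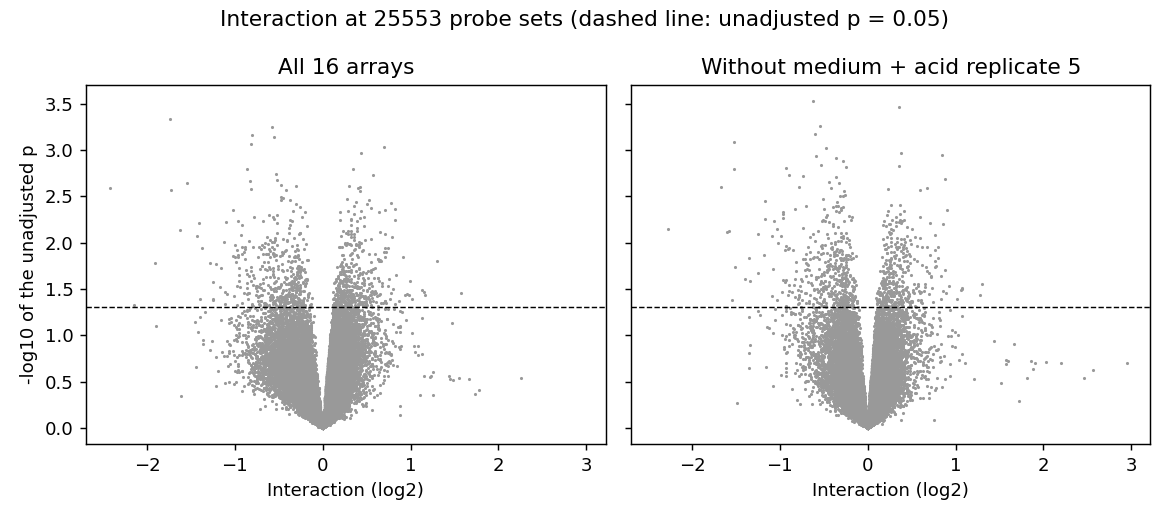
Interaction in log2 units (horizontal) against -log10 of the unadjusted limma p (vertical) for 25553 probe sets, with all 16 arrays on the left and without replicate 5 of medium + acid on the right. Points above the dashed line have an unadjusted p under 0.05, 927 on the left and 845 on the right, and 0 of them passed after adjustment in either panel.

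The sign of the interaction moved with signal level. Among the 17116 probe sets called Present on all 16 arrays, 37.1% were positive with a median of -0.072, whereas among the 8437 with fewer Present calls 73.0% were positive with a median of 0.056. Without replicate 5 of medium + acid, the array with the lowest median log2 intensity, those medians were -0.03 and 0.036, so the gap was narrower and of the same direction. The part of array scaling in the remaining gap was not tested.

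Taken number by number, the interaction was not the same quantity 4 times over. Replicate number 5 gave 4690 probe sets beyond 1 log2 unit (18.4%), while numbers 2, 3 and 4 gave 801, 836 and 643 (3.1%, 3.3% and 2.5%). Across the 25553 probe sets, which are not independent replicates, Pearson's r between numbers was -0.099 for 2 and 3, 0.161 for 2 and 4, -0.117 for 3 and 4, and between -0.312 and 0.204 for the pairs with number 5. Numbers are compared here as a description with no p, and all probe sets of a number share the same 4 arrays. All 4 numbers had the same sign at 4161 probe sets, or 16.3%.

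The leading genes are those with the lowest unadjusted p of each sign among 2291 eligible probe sets, a set that required the same sign in all 4 numbers. They share a shape. At all 10 leading positive genes both single exposures averaged below untreated pools, and medium + acid averaged within -0.069 to 0.132 log2 units of untreated. At 9 of the 10 leading negative genes both single exposures averaged above untreated pools. The shape follows in part from the contrast, since untreated pools enter it with a positive sign: it was present at 96.2% of the 445 positive and 92.5% of the 482 negative probe sets under the unadjusted threshold, against 34.3% and 32.0% of all probe sets.

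Bcas2, a subunit of the spliceosome, led the positive genes. Its log2 intensity in replicates 2 to 5 was 9.73, 9.81, 10.54 and 10.30 with medium + acid, 9.40, 9.29, 10.06 and 9.93 with medium, 9.47, 9.89, 10.32 and 9.85 with acid, and 9.90, 9.66, 10.74 and 10.36 in untreated pools. Replicate 4 was the highest pool in every group, and all 4 groups overlapped. The sum of the single exposures came to 9.39, and the interaction was 0.70 ± 0.15 (SE; unadjusted p = 0.000922, adjusted p = 0.751), or 1.63-fold above that sum. Without replicate 5 of medium + acid it was 0.68 ± 0.17 (adjusted p = 0.906). Of its 2 other probe sets, 1 had the same sign.

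Tomm22, the receptor through which proteins enter the mitochondrial outer membrane, had 13.31, 13.39, 13.50 and 13.90 with medium + acid, 13.23, 13.17, 13.27 and 13.43 with medium, 13.18, 13.27, 13.41 and 13.41 with acid, and 13.48, 13.42, 13.46 and 13.67 in untreated pools. The medium + acid pool of replicate 5 was the highest of all 16, and every untreated pool lay above every acid pool. Its interaction was 0.44 ± 0.10 (adjusted p = 0.751) and 0.36 ± 0.07 without that array (adjusted p = 0.906). The sign did not hold on either other measure of this gene: it was negative at its other probe set, and the Affymetrix software's own signal gave -0.244 for the same probe set.

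Egfl7, which encodes a secreted EGF-domain protein known from blood vessels, had 8.84, 9.12, 8.75 and 8.79 with medium + acid, 8.63, 8.66, 8.56 and 8.64 with medium, 8.70, 8.90, 8.52 and 8.67 with acid, and 8.81, 8.83, 8.72 and 8.82 in untreated pools. All 4 medium + acid pools and all 4 untreated pools were above all 4 medium pools. The interaction of 0.35 ± 0.08 (adjusted p = 0.751) was 0.38 ± 0.08 without replicate 5 of medium + acid (adjusted p = 0.906), and all 3 other probe sets of the gene had the same sign.

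The other 7 leading positive genes had interactions of 0.28 to 0.57. Among them were Bcor, a corepressor that works with Polycomb proteins (0.43 ± 0.11), Riok2, a kinase of small ribosomal subunit maturation (0.40 ± 0.10), Idnk, a gluconate kinase (0.30 ± 0.08), and C1qtnf4, a secreted C1q-related protein (0.57 ± 0.14). Of the other probe sets of Riok2 1 of 3 shared its sign, and of those of Bcor 1 of 2. Rdx, the radixin that ties membranes to actin, had 0.28 ± 0.07, but its 2 other probe sets had the opposite sign. H2bc22, a histone H2B gene, had 0.52 ± 0.14 near the lower end of the scale, with group means from 5.03 to 5.33, and was Present on 1 of the 4 medium arrays. The unannotated 1810030O07Rik had 0.42 ± 0.11.

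Rb1cc1, a scaffold of the kinase complex that starts autophagy, led the negative genes. It had 8.59, 8.51, 8.30 and 8.10 with medium + acid, 8.54, 8.91, 8.56 and 8.64 with medium, 8.86, 8.89, 8.72 and 8.60 with acid, and 8.54, 8.59, 8.56 and 8.21 in untreated pools. Every acid pool lay above every medium + acid pool and above every untreated pool. The interaction was -0.58 ± 0.12 (unadjusted p = 0.000563, adjusted p = 0.751), and -0.54 ± 0.12 without replicate 5 of medium + acid (adjusted p = 0.906). Its 2 other probe sets had the opposite sign.

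Gyg, glycogenin, the protein that primes glycogen chains, had an even interaction over the numbers. It had 6.95, 6.86, 6.69 and 7.17 with medium + acid, 7.26, 7.46, 6.99 and 7.45 with medium, 7.13, 6.84, 6.95 and 7.20 with acid, and 6.91, 6.83, 6.74 and 6.91 in untreated pools. The 4 medium pools were all above the 4 untreated pools, while the medium + acid pools overlapped the untreated ones. Numbers 2 to 5 gave -0.54, -0.61, -0.51 and -0.57, and the fit -0.56 ± 0.12 (adjusted p = 0.751), or -0.60 ± 0.12 without replicate 5 of medium + acid (adjusted p = 0.906). The software signal of the same probe set gave -0.06 ± 0.26, so the size depended on the array summary. Its other probe set had the same sign.

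Dnmt3a, a de novo DNA methyltransferase, had 8.59, 8.72, 8.83 and 8.64 with medium + acid, 8.79, 8.98, 9.15 and 8.88 with medium, 8.88, 8.97, 9.33 and 9.09 with acid, and 8.72, 8.79, 8.70 and 9.03 in untreated pools. All 4 medium + acid pools were below all 4 acid pools, and the medium pools overlapped both groups. The interaction was -0.52 ± 0.13 (adjusted p = 0.751) and -0.48 ± 0.13 without replicate 5 of medium + acid (adjusted p = 0.906). All 4 other probe sets of Dnmt3a had the same sign. The software signal of the same probe set gave -0.24 ± 0.14.

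The other 7 leading negative genes had interactions of -0.47 to -1.55. Trpa1, a calcium-permeable cation channel, had -0.87 ± 0.21 at a low level, with group means of 4.67 with medium + acid, 5.24 with medium, 4.83 with acid and 4.53 in untreated pools, but the software signal of the same probe set gave -0.01 ± 0.24. Gna14, a G protein alpha subunit, had the widest spread: number 3 gave -3.41, with 5.09 for medium + acid, 7.11 for medium, 6.64 for acid and 5.25 for untreated pools, and the other numbers gave -0.60 to -1.37. Xrn1, an exonuclease of messenger RNA decay, had -0.47 ± 0.12, Ccdc13, a centrosomal protein, -0.82 ± 0.18, Nxpe3 -0.80 ± 0.17, and Pnliprp2, a lipase, -0.83 ± 0.20. With the software signal Gna14 had -0.37 ± 0.17, Ccdc13 -0.18 ± 0.25, Xrn1 -0.13 ± 0.28 and Nxpe3 -0.45 ± 0.25, while Pnliprp2 kept -0.63 ± 0.22. Of the 20 leading genes, 13 had another tested probe set, and 15 of those 24 other probe sets shared the sign. Over all genes, 55.7% of 15715 pairs of probe sets of a gene did.

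**Figure D3:**
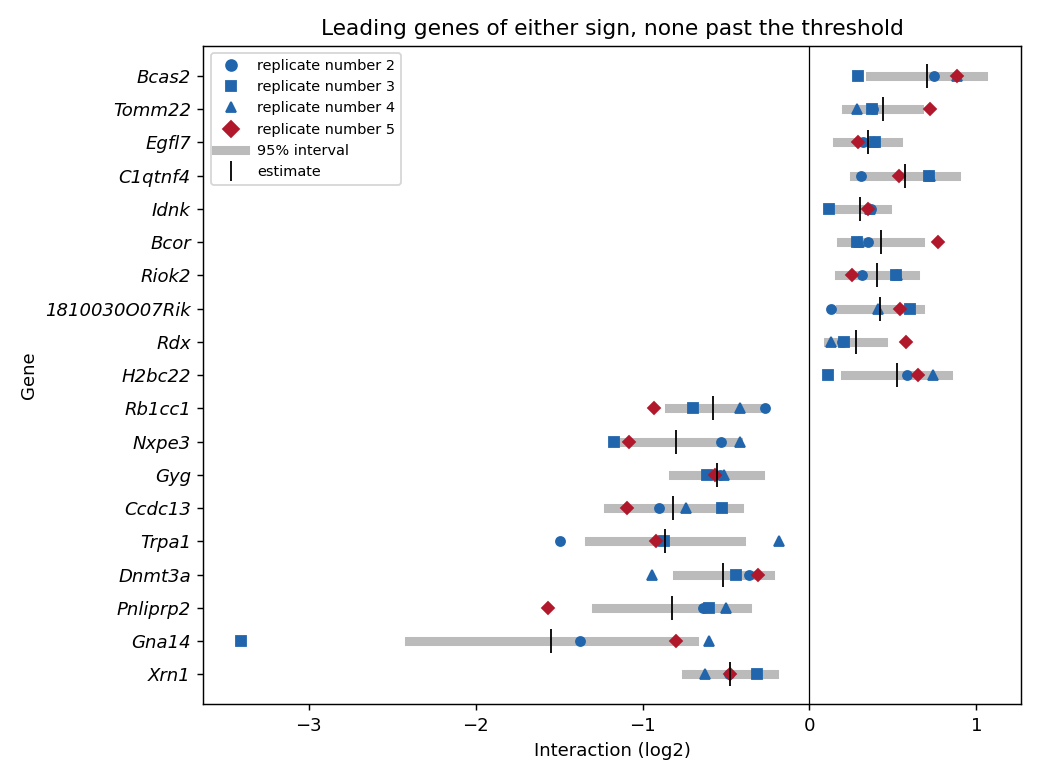
Interaction in log2 units for the 10 leading positive genes and 9 of the 10 leading negative genes. Symbols are the 4 replicate numbers, with number 5 in red, bars the 95% intervals and ticks the estimates; all symbols of a gene lie on the same side of 0, as its choice required, and Gna14 reaches -3.41 in number 3.

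Leaving out replicate 5 of medium + acid brought other genes to the front. Tomm22 and Egfl7 stayed among the 5 leading positive genes, and Xrn1 and Gyg among the 5 leading negative ones. Mbtps1, a protease that activates SREBP and ATF6 in the Golgi, showed how far that array weighed: it had 6.41, 6.69, 6.61 and 3.34 with medium + acid, against 5.99 to 6.20 with medium, 5.98 to 6.48 with acid and 6.51 to 6.90 in untreated pools. The interaction was 0.04 ± 0.77 with the array and 0.84 ± 0.18 without it (adjusted p = 0.987 and 0.906). Psmb9, an immunoproteasome subunit, had 0.50 ± 0.40 with it and 0.88 ± 0.21 without it, and Atxn7l3b had 0.53 ± 0.18 and 0.36 ± 0.08. Clip1, which binds growing microtubule ends, had -0.52 ± 0.15 with the array and -0.63 ± 0.11 without it, and Srek1ip1, a splicing regulator, -0.27 ± 0.22 and -0.48 ± 0.10. None passed the test in either fit.

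Gene lists were read by their counts and medians, and a gene with several tested probe sets was represented by the brightest on average. Over all 12025 genes, 5622 were positive and 6403 negative with a median of -0.019; over all probe sets 48.9% were positive and 51.1% negative. Among the 8916 genes Present on all 16 arrays, 36.5% were positive with a median of -0.07, and 496 of the 573 distinct members of the 25 lists were Present on all 16. Of the 573, 0 were called (0% of all probe sets), and 10 positive (1.75%) and 7 negative (1.22%) had an unadjusted p under 0.05, where all probe sets gave 1.74% and 1.89%. The medians of 21 of the 25 lists were negative, and of 14 without replicate 5 of medium + acid. When each array was centred on its own median, the median of all probe sets moved to 0.098, so list medians are read against that level there.

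**Figure D4:**
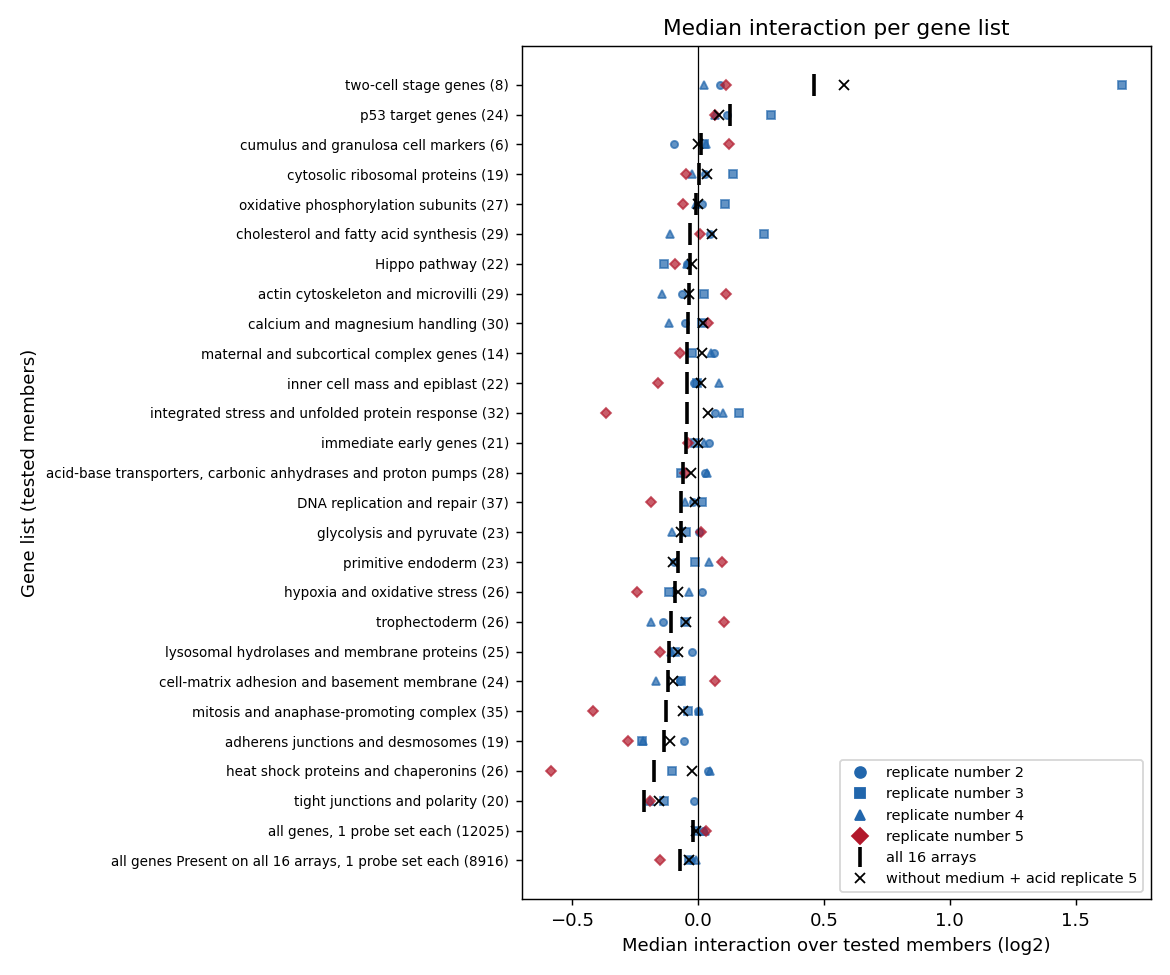
Median interaction in log2 units of each gene list, with the number of tested members, over all 16 arrays (bars), without replicate 5 of medium + acid (crosses) and within each replicate number (symbols, number 5 in red). The tight junction list has the lowest median at -0.213 and the two-cell stage list the highest at 0.462, with its number 3 at 1.684.

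Genes of cell-cell junctions, the structures that loosen without calcium, had more negative than positive values. Of 19 adherens junction and desmosome genes 3 were positive and 16 negative, with a median of -0.135 (-0.111 without replicate 5 of medium + acid), and of 20 tight junction and polarity genes 5 were positive and 15 negative, with a median of -0.213 (-0.153). By replicate number, 2 to 5, the medians were -0.055, -0.22, -0.219 and -0.278 for the first list and -0.015, -0.133, -0.189 and -0.191 for the second, beside -0.025, -0.033, -0.006 and -0.15 over all genes Present on all 16 arrays. With centred arrays the list medians were -0.029 and -0.108, beside 0.098 over all probe sets there and -0.007 in the main fit. With the software signal they were -0.015 and -0.048, beside 0.044 over all probe sets. Of these 39 genes 0 were called, and 1 of each list had an unadjusted p under 0.05.

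Perp, a desmosome protein and p53 target, had 10.91, 10.92, 10.74 and 10.47 with medium + acid, 10.97, 10.98, 11.23 and 11.03 with medium, 11.08, 11.11, 11.02 and 11.12 with acid, and 10.90, 10.82, 11.30 and 10.76 in untreated pools. Every medium + acid pool lay below every medium pool and every acid pool. The interaction was -0.43 ± 0.16 (unadjusted p = 0.0233, adjusted p = 0.751). Llgl1, a basolateral polarity protein, had -0.37 ± 0.13 (unadjusted p = 0.0183), Nectin3, an adhesion molecule of adherens junctions, -0.48 ± 0.22, and Pard6b, an apical polarity protein, -0.20 ± 0.10. Ctnnb1, beta-catenin, had -0.41 ± 0.25 with all arrays and -0.16 ± 0.11 without replicate 5 of medium + acid, which stood at 13.28 where the other 3 combined pools had 14.08 to 14.61. Magi3, a junctional scaffold, had -0.44 ± 0.20, with the opposite sign at both other probe sets.

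Cell-matrix adhesion and basement membrane genes had 6 positive and 18 negative members of 24 and a median of -0.118, -0.099 without replicate 5 of medium + acid and -0.013 with centred arrays. Nid2, a basement membrane nidogen, had -0.79 ± 0.38, P4ha1, a collagen prolyl hydroxylase, -0.55 ± 0.25, and Lamc1, a laminin chain, -0.36 ± 0.19. The software signal gave 0.025 for Lamc1. No member of this list had an unadjusted p under 0.05.

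Genes that handle the ions themselves had medians near those of all genes. Calcium and magnesium handling genes had 9 positive and 21 negative of 30, with a median of -0.037 that was 0.02 without replicate 5 of medium + acid and 0.069 with centred arrays. Atp2a2, the calcium pump of the endoplasmic reticulum, had -0.14 ± 0.07, Anxa5, a calcium-dependent phospholipid binder, -0.31 ± 0.17, and Orai1, a store-operated calcium channel, 0.47 ± 0.26 with number 5 at 1.67. Acid-base transporters, carbonic anhydrases and proton pumps had 12 positive and 16 negative of 28 and a median of -0.059, -0.025 without replicate 5 of medium + acid and 0.046 with centred arrays. Atp6v0d1, a subunit of the vacuolar proton pump, had -0.29 ± 0.15, and Slc9a8, a sodium-proton exchanger, 0.26 ± 0.19. In both lists 0 members had an unadjusted p under 0.05.

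Genes of the p53 response had more positive than negative values. Of 24 tested targets 16 were positive and 8 negative, with a median of 0.127 and 0.084 without replicate 5 of medium + acid. With centred arrays it was 0.232, beside 0.098 over all probe sets there. The median was above 0 in each number, at 0.115, 0.293, 0.07 and 0.07. Over all genes Present on all 16 arrays the numbers gave -0.025, -0.033, -0.006 and -0.15. Tnfrsf10b, a TRAIL death receptor, had 6.91, 6.69, 6.78 and 6.73 with medium + acid, 6.22, 6.64, 6.76 and 6.46 with medium, 6.67, 6.21, 6.24 and 6.28 with acid, and 6.78, 6.99, 6.82 and 6.30 in untreated pools. All 4 medium + acid pools were above all 4 acid pools, and 3 of the 4 untreated pools were too. The medium + acid pools, at 6.69 to 6.91, lay within the range of the untreated pools, 6.30 to 6.99. The interaction was 0.63 ± 0.22 (unadjusted p = 0.015, adjusted p = 0.751), and Bbc3, which encodes the apoptosis trigger Puma, had 0.34 ± 0.14 (unadjusted p = 0.032). Perp, described above with the desmosome genes and also a p53 target, had -0.43 ± 0.16 (unadjusted p = 0.0233), so 2 positive members and 1 negative member lay under 0.05. Phlda3, an inhibitor of Akt signalling, had 0.69 ± 0.41, with medium pools spread from 7.56 to 9.41.

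The integrated stress and unfolded protein response had 15 positive and 17 negative genes of 32 and a median of -0.043, which was 0.04 without replicate 5 of medium + acid and 0.062 with centred arrays. The members named here belong to its ATF4 branch. Atf4, the transcription factor of that branch, had 14.14, 14.13, 13.97 and 14.07 with medium + acid, 14.11, 13.50, 13.74 and 13.79 with medium, 13.98, 13.71, 13.91 and 13.75 with acid, and 14.02, 13.70, 13.98 and 14.09 in untreated pools. The medium + acid pools were the least spread of the 4 groups, at 13.97 to 14.14, and overlapped each of the others. The interaction was 0.41 ± 0.13 (unadjusted p = 0.0105, adjusted p = 0.751), and 0.42 ± 0.14 without replicate 5 of medium + acid (adjusted p = 0.906).

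Ddit3, the factor CHOP downstream of ATF4, had 9.11, 8.72, 7.95 and 8.52 with medium + acid, 8.79, 8.11, 8.40 and 8.25 with medium, 8.22, 8.09, 7.82 and 7.65 with acid, and 8.54, 8.80, 8.34 and 8.16 in untreated pools. Acid pools had the lowest mean, 7.94, and the groups overlapped. The interaction was 0.71 ± 0.24 (unadjusted p = 0.0143, adjusted p = 0.751). Chac1, a glutathione-degrading target of the same branch, had 1.48 ± 0.74 but not the same sign in each number, with -1.49 in number 2 and 2.22 to 2.70 in the others. These 3 genes are given for their rank by p, and the median of their list was on the other side of 0 with all arrays.

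**Figure D5:**
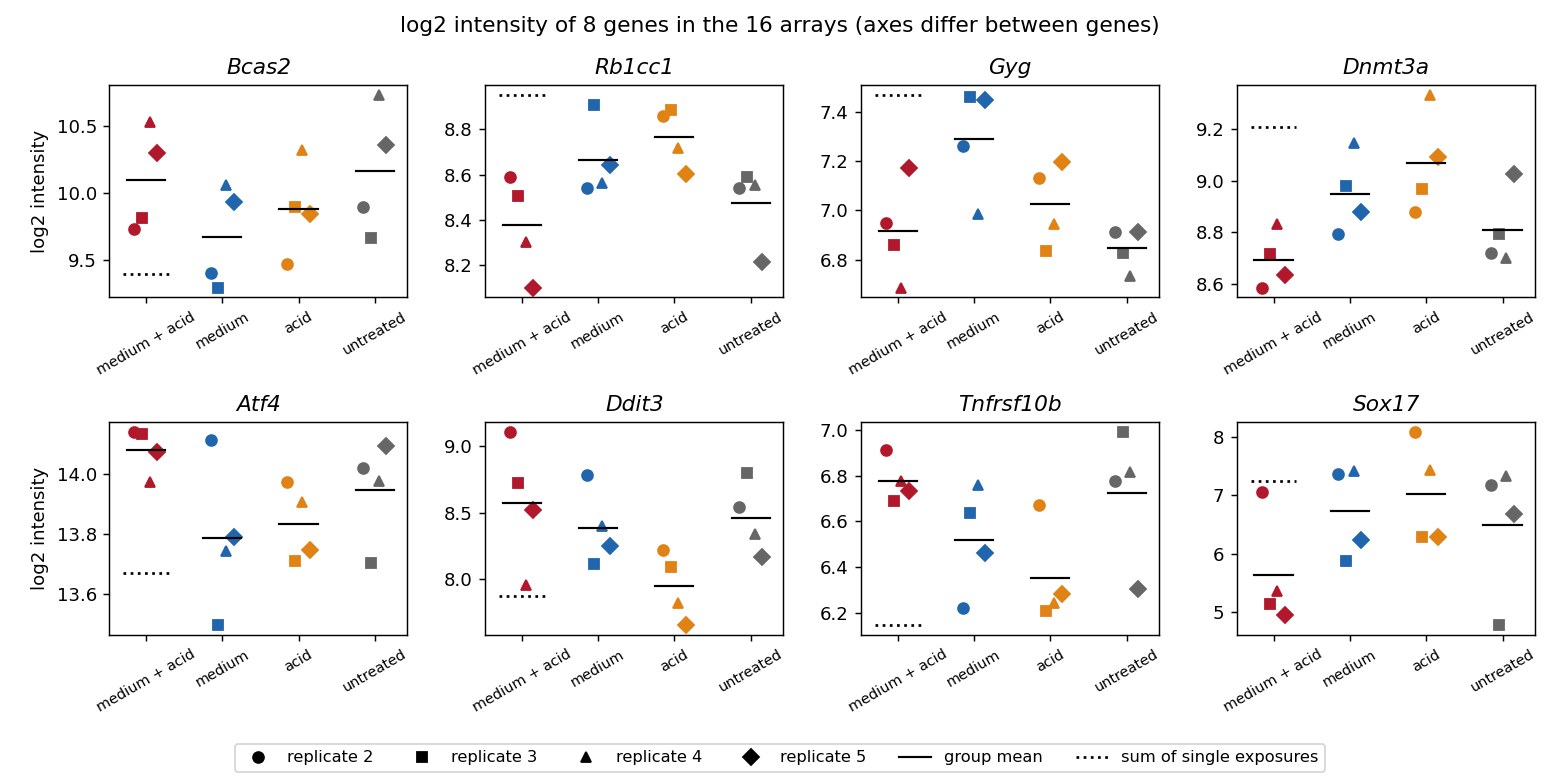
log2 intensity of 8 genes in the 16 arrays, by group from medium + acid on the left to untreated on the right, with symbols for the replicate numbers. Solid lines are group means and dotted lines the sum of the single exposures that the medium + acid mean is set against; the Bcas2 mean of 10.09 lies above its dotted line at 9.39, and the Rb1cc1 mean of 8.38 below its line at 8.95.

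Among other stress genes, the heat shock list had a median that moved with the single array. Heat shock proteins and chaperonins had 6 positive and 20 negative of 26 and a median of -0.175, but -0.021 without replicate 5 of medium + acid, and number 5 gave -0.584 where the other numbers gave -0.1 to 0.047. Hspd1, the mitochondrial chaperonin, had 15.09, 15.00, 15.04 and 14.34 with medium + acid, and all 12 other pools between 14.95 and 15.13. Its interaction was -0.25 ± 0.18 with that array and -0.07 ± 0.07 without it, and Cct2, a cytosolic chaperonin subunit, had 0.11 ± 0.06. Hypoxia and oxidative stress genes had 8 positive and 18 negative of 26 and a median of -0.092 (-0.077 without that array, 0.013 with centred arrays), with Gclm, a subunit of the glutathione synthesis enzyme, at -0.18 ± 0.08 and Bnip3, a mitophagy receptor, at -0.16 ± 0.08.

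Immediate early genes had 6 positive and 15 negative of 21 and a median of -0.045, 0.001 without replicate 5 of medium + acid and 0.06 with centred arrays. Ier3, an early stress-response gene, had -0.73 ± 0.31 (unadjusted p = 0.0387), with number 5 at -1.65 and number 4 at 0.08. Egr1, the classical early growth response factor, was at the bottom of the scale in every group, between 1.75 and 1.89. Cholesterol and fatty acid synthesis genes had 14 positive and 15 negative of 29 and a median of -0.031 (0.055 without replicate 5 of medium + acid, 0.074 with centred arrays), with the sterol enzymes Fdft1 at 0.25 ± 0.13 and Idi1 at 0.21 ± 0.12.

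Lineage lists gave small medians. Inner cell mass and epiblast genes had 7 positive and 15 negative of 22 and a median of -0.043 (0.014 without replicate 5 of medium + acid, 0.062 with centred arrays). Gdf3, a TGF-beta family ligand of pluripotent cells, had 0.33 ± 0.11 (unadjusted p = 0.0107), with the opposite sign at its other probe set. Hesx1, a homeobox repressor, had 0.67 ± 0.23 (unadjusted p = 0.0159) at a very low level: 3.03 to 3.41 with medium + acid, 3.16 to 3.25 with medium, 3.06 to 3.26 with acid, and 3.27, 3.95, 4.16 and 4.03 in untreated pools. At this gene 3 of the 4 untreated pools stood above the other 13 arrays. Dppa5a, a pluripotency gene near the top of the scale, had -0.08 ± 0.05, and 0.029 with centred arrays.

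Trophectoderm genes had 8 positive and 18 negative of 26 and a median of -0.104, -0.047 without replicate 5 of medium + acid and 0.001 with centred arrays. Krt7, a keratin of the outer epithelium, had -0.61 ± 0.47, and Cldn4, a tight junction claudin, -0.30 ± 0.17 with that array and -0.16 ± 0.13 without it. Primitive endoderm genes had 8 positive and 15 negative of 23 and a median of -0.079, -0.099 without it and 0.026 with centred arrays. Dab2, an endocytic adaptor of the endoderm, had -0.13 ± 0.09.

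Sox17, a transcription factor of primitive endoderm, had the most negative interaction of all list members. It had 7.06, 5.15, 5.37 and 4.95 with medium + acid, 7.37, 5.88, 7.41 and 6.24 with medium, 8.08, 6.28, 7.43 and 6.29 with acid, and 7.18, 4.79, 7.34 and 6.67 in untreated pools. In all 4 groups replicates 2 and 4 were the higher pools, though with medium + acid replicate 4, at 5.37, was near replicate 3, at 5.15. The medium + acid pools of replicates 3, 4 and 5 lay below every medium and every acid pool and above the lowest untreated pool. The interaction was -1.62 ± 0.49 (unadjusted p = 0.00732, adjusted p = 0.751), and -1.51 ± 0.53 without replicate 5 of medium + acid (adjusted p = 0.906). The other Sox17 probe set had the opposite sign.

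The Hippo pathway had 7 positive and 15 negative genes of 22 and a median of -0.032, -0.023 without replicate 5 of medium + acid and 0.073 with centred arrays. Stk4, a core kinase of the pathway, had -0.16 ± 0.07 (unadjusted p = 0.0352), with means of 12.84 with medium + acid, 12.85 with medium, 12.99 with acid and 12.84 in untreated pools, and Amot, the junctional activator of the pathway in inner cells, had -0.23 ± 0.12 with the opposite sign at both other probe sets. Actin cytoskeleton and microvillus genes had 12 positive and 17 negative of 29 and a median of -0.036, the same without that array and 0.069 with centred arrays, with the non-muscle myosin Myh10 at -0.19 ± 0.10.

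Two-cell stage genes gave the highest median of the 25 lists, from a single pool. Of 8 tested members 6 were positive and 2 negative, with a median of 0.462 (0.579 without replicate 5 of medium + acid), and number 3 gave 1.684 where numbers 2, 4 and 5 gave 0.025 to 0.113. Only 2 of the 8 were Present on all 16 arrays, and with such probe sets alone the list median was -0.065. Zfp352, a zinc finger gene of the two-cell embryo, had 2.71, 8.36, 2.77 and 2.83 with medium + acid, 2.67 to 2.72 with medium, 2.70 to 3.44 with acid, and 2.68 to 3.56 in untreated pools. In the same medium + acid pool, replicate 3, Tcstv1 had 8.06, Tcstv3 6.90 and Tdpoz1 5.62, and on the 15 other arrays Tcstv1 had 2.58 to 2.73. These 4 genes, all known from the two-cell stage, were chosen after their values were seen. Their interactions were 1.49 ± 1.37, 1.44 ± 1.25, 1.22 ± 1.08 and 0.74 ± 0.65 in the order named (SE), and none passed the test. Maternal and subcortical complex genes had 5 positive and 9 negative of 14 and a median of -0.042, which was 0.018 without replicate 5 of medium + acid and 0.063 with centred arrays. In numbers 2 to 5 the median of this list was 0.063, -0.022, 0.052 and -0.07. Of its 14 members 0 had the same sign in all 4 numbers. Nlrp14, an oocyte-derived member, had 6.69 in replicate 3 of medium + acid, against 6.16 to 6.18 in the other 3 medium + acid pools. Its interaction was -0.44 ± 0.22.

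Mitosis and anaphase-promoting complex genes had 5 positive and 30 negative of 35 and a median of -0.127, but -0.059 without replicate 5 of medium + acid, with number 5 at -0.416 and the other numbers at -0.038 to 0.005. Anapc1, a scaffold subunit of that complex, had -0.18 ± 0.09 and shared its sign with all 4 other probe sets, whereas Kif14, a kinesin of cytokinesis, had 0.63 ± 0.22 at a low level (unadjusted p = 0.015). DNA replication and repair genes had 13 positive and 24 negative of 37 and a median of -0.066, -0.01 without that array and 0.039 with centred arrays, with Mcm10 at -0.18 ± 0.09 and Gins2 at 0.38 ± 0.18, both of them replication fork proteins.

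Among genes of metabolism and turnover, lysosomal genes had 6 positive and 19 negative of 25 and a median of -0.112, -0.078 without replicate 5 of medium + acid and -0.007 with centred arrays. Neu1, a lysosomal sialidase, had -0.33 ± 0.13 (unadjusted p = 0.026) and the protease Ctsl -0.42 ± 0.20. Glycolysis genes had 6 positive and 17 negative of 23 and a median of -0.068, -0.066 without that array and 0.038 with centred arrays, with lactate dehydrogenase Ldha at -0.39 ± 0.27. Oxidative phosphorylation subunits had 12 positive and 15 negative of 27 and a median of -0.006 (0.001 without that array, 0.099 with centred arrays), with Ndufb8 of the first respiratory complex at 0.21 ± 0.12. Cytosolic ribosomal proteins had 11 positive and 8 negative of 19 and a median of 0.005 (0.036 without that array, 0.11 with centred arrays), with Rps9 at 0.57 ± 0.25 and the opposite sign at both of its other probe sets, and Rpl27 at 0.20 ± 0.11. Cumulus and granulosa cell markers had 3 positive and 3 negative of 6 and a median of 0.013 (0.003 without that array, 0.118 with centred arrays), with Amhr2, the receptor of anti-Mullerian hormone, at -0.11 ± 0.27.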

How the data were processed

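RNA was amplified linearly in repeated rounds and hybridised to 1-colour Affymetrix MOE430v2 arrays, per the labels and the series design text. The deposited series table holds 1 intensity per probe set and array, which the authors made with GC-RMA, per the series design text. Although described as log2, the deposited intensity values were on the linear scale, so log2 was taken here. Each array also has a deposited table with a scaled intensity, a Present or Absent call and the p-value of that call from the Affymetrix software, per the file headers. The number of arrays limits the precision.

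Of 45101 probe sets, 64 controls were left out and 25553 with a Present call on 3 or more of the 20 arrays were tested. GEO's platform annotation gave a single symbol for 34958, several for 932 and did not list 9211, controls included; 34754 were updated by gene number. Probe sets with several symbols were not named.

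limma 3.58.1 in R 4.3.3 was fitted to 16 arrays with 4 group means and replicate number as a fixed block (lmFit, eBayes), and the interaction contrast was tested two-sided with Benjamini-Hochberg adjustment. The fit was repeated without replicate 5 of medium + acid. The fit to 16 arrays was checked on simulated data with independent errors. Their spread was taken without that array, so the check does not cover an array that stands apart. Nothing says that the pools came from separate collections, so p-values reflect only how far these samples spread, which may be technical. The labels number pools from 2 to 5 in each group.

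Genes were named by the lowest p of each sign, up to 10 with all arrays and 5 without that array, among probe sets with a single symbol, Present calls on all 4 arrays of a group and the same sign in every complete replicate number; of each list, members were taken from the 4 with the lowest p. A leading negative gene is not reported here. The comparison, lists and rules were chosen with earlier results of these data known. Alternatives changed the block, arrays, summary, scaling, filter, pseudocount, moderation and weights, and left out each array and each number in turn.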

Additional observations from a re-analysis of the deposited data

Results flagged for a closer look

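In 19 of 320 groups of 4 pools (5.94%), 1 pool lay farther from the other 3 than Dixon's 95% critical value allows, a criterion that chance meets in about 1 of 20 groups. The 4 two-cell stage genes chosen after their values were seen gave another 7 and are not in that share.

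Replicate 5 of medium + acid was such a pool at Mbtps1, with 3.34 where the other 3 had 6.41 to 6.69, at Atxn7l3b with 12 against 11.20 to 11.27, at Hspd1 with 14.34 against 15.00 to 15.09, and at Cldn4 with 12.04 against 12.72 to 12.85. Its Gapdh 3'/5' ratio of 3.99 stood above 3.51 to 3.53 in the rest of its group, but within the 3.08 to 4.30 of the other 15 arrays.

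Replicate 3 of medium + acid stood apart at the two-cell stage genes Zfp352 (8.36, others 2.71 to 2.83), Tcstv1 (8.06, others 2.61 to 2.73), Tcstv3 (6.90, others 2.23 to 2.30) and Tdpoz1 (5.62, others 2.81 to 2.94). The same pool was high at Nlrp14 (6.69, others 6.16 to 6.18) and Gins2 (11.49, others 11.10 to 11.13). Replicate 4 of that group was high at Dppa5a (15.78, others 15.72 to 15.73).

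Among medium pools, replicate 3 was high at C1qtnf4 (7.04, others 6.52 to 6.60) and Ctsl (14.65, others 14.24 to 14.30), and replicate 4 at Egr1 (1.80, others 1.76 to 1.77).

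Among acid pools, replicate 4 was low at Idnk (8.85, others 9.07 to 9.11), Hesx1 (3.06, others 3.23 to 3.26) and Mcm10 (13.62, others 13.82 to 13.85), and high at Zfp352 (3.44, others 2.70 to 2.73). Replicate 2 was high at Tnfrsf10b (6.67, others 6.21 to 6.28) and low at Bbc3 (6.63, others 6.89 to 6.93).

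Among untreated pools, replicate 5 was low at Rb1cc1 (8.21, others 8.54 to 8.59) and Ctsl (14.08, others 14.34 to 14.36), replicate 4 high at Bbc3 (7.47, others 6.90 to 6.93), and replicate 2 high at Zfp352 (3.56, others 2.68 to 2.71) and Tdpoz1 (2.88, others 2.80 to 2.81). The cause of these values was not tested.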

How the results depend on the processing

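The count of called probe sets stayed at 0 under all 12 other settings and all 20 leave-outs, and under 12 settings without replicate 5 of medium + acid; the lowest adjusted p was 0.231, without replicate number 2, with 0.282 to 0.929 over the others of these 32 and 0.386 to 1 over the 12 without that array. Counts at an unadjusted p under 0.05 moved more, and their split by sign moved with scaling. Against 927 (445 positive, 482 negative), the software signal gave 1230 (1008 and 222), centred arrays 1005 (832 and 173), quantile normalization 1007 (706 and 301), ordinary least squares 2045 (1670 and 375), an intensity trend together with robust moderation 1512 (1140 and 372), array weights 2191 (1283 and 908), no detection filter 4125 of 45037 probe sets (3590 and 535), and Present calls on all 16 arrays 521 of 17116 (175 and 346). Leaving out single arrays gave 538 to 2264, the highest without replicate 2 of medium + acid and the lowest without replicate 2 of untreated. Without replicate 5 of medium + acid, 845 (393 and 452) stood against 1040 (753 and 287) with the software signal, 1178 (938 and 240) centred, 950 (595 and 355) after quantile normalization, 1217 (838 and 379) by ordinary least squares, 1876 (1061 and 815) with array weights, 2150 (1644 and 506) with no detection filter, 506 (174 and 332) Present on all 16, and 542 (296 and 246) without the replicate block. With all arrays and without the replicate block 668 were under that threshold and 0 were called. Same-numbered pools correlated between -0.092 and 0.403 in their deviations from group means, over 0.1 in 17 of 24 pairs, and all 16 arrays correlated best with a pool of their own number, a hint from the data and not from the design. Of the 20 leading genes, Tomm22 alone turned its sign under any setting (-0.244 with the software signal). That signal brought Trpa1 to -0.010, Gyg to -0.059, Xrn1 to -0.132, Ccdc13 to -0.180, Dnmt3a to -0.242, Rb1cc1 to -0.344 and Gna14 to -0.366. Other turns were Lamc1 (0.025), Dppa5a (0.036) and Tdpoz1 (-0.180) with the software signal, and Dppa5a (0.029) and Amhr2 (0) with centred arrays. Over the leave-outs Mbtps1 ranged from -0.461 to 0.897 and Amhr2 from -0.310 to 0.058, the actin ratio's interaction from -0.198 to 1.091 and the Gapdh ratio's from -0.549 to 0.216. List medians kept their sign under all 33 settings for 6 of 25 lists, namely both junction lists, cell-matrix adhesion, p53 targets, mitosis and lysosomal genes. These signs are taken against 0. The median of all probe sets was itself -0.072 with Present calls on all 16 arrays and 0.098 with centred arrays. The causes were not tested.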
